A study of Mus musculus with 16 samples.

Results

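The nuclear genes that encode subunits of the mitochondrial respiratory chain were followed in mouse retinal pigment epithelium (RPE), the pigmented layer that supports the photoreceptors. The set holds 42 of the 51912 genes in the table, chosen by name, and all 42 reached the minimum mean of 1 CPM (counts scaled to a library of 1e6 counts). They comprise 24 genes of complex I, 7 of complex III, 10 of complex IV and 1 for the electron carrier cytochrome c. RNA came from 40-week-old male C57BL/6 mice, either wild type or knockout for Sucnr1, whose product SUCNR1 is a receptor for succinate. Both genotypes were studied untreated and with hydroquinone, a compound that causes oxidative stress, at a dose and for a time not given in the labels. The knockout allele, and whether it acts in the whole animal or in 1 cell type, is not given either. The 16 libraries, each from 1 eye, formed 4 groups of 4. Untreated wild type came from 2 mice, wild type with hydroquinone from 4, untreated knockout from 3 and knockout with hydroquinone from 4, as the sample titles number the mice. The tissue was lifted from the choroid with forceps, so a library can hold RNA of neighbouring tissue.

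The respiratory chain, in the inner mitochondrial membrane, passes electrons from nutrients to oxygen. Complex I takes electrons from NADH and hands them to ubiquinone. Complex II, which is succinate dehydrogenase, also feeds ubiquinone and oxidises succinate, the ligand of SUCNR1. Complex III passes electrons on to cytochrome c, and complex IV passes them to oxygen. Some subunits are encoded in mitochondrial DNA, while the genes followed here are in the nucleus and their proteins are imported. The RPE relies strongly on oxidative metabolism and leaves much of its glucose to the photoreceptors.

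Promoters of these genes are known to be served by shared transcription factors, among them NRF1, GABP, ERR and YY1, so the start regions of the genes were searched for the core motif of each. The RefSeq promoter table (GRCm38.p6, 250 bases before to 50 after each start) matched 33 of the 42 genes. Its entries did not match Ndufs1, Ndufa2, Ndufb9, Uqcrc2, Uqcrb, Uqcrq, Cyc1, Cox4i1 and Cox6c. Both strands were searched, and motifs were counted whether or not they overlapped another. A gene counted if any of its start regions held the motif. The NRF1 motif (GCGC, 1 base of any kind, then TGCGC) was in 7 of 33 genes. This is 21.2%, against 5.19% of all 27025 genes in the promoter table, which were not limited to genes detected here. The GABP motif CCGGAAG was in 6 (18.2%, against 9.93%), and the YY1 motif AAGATGGCG in 4 (12.1%, against 1.64%). The ERR motif TCAAGGTCA was in 0 of 33, against 0.466% of all genes in the promoter table. At least 1 of the motifs was in 15 of the 33 (45.5%, against 15.5%). These are matches of letters, with no test. The promoters of 4 genes that recur in the results are shown 5′ to 3′ along the gene, with motif matches on either strand in capitals. Ndufs6 holds an NRF1 and a YY1 match, Cox6a1 holds 2 NRF1 matches and 1 GABP match in reverse orientation, and Cox7c and Cycs hold none.
Ndufs6, chr13:73328433-73328732, minus strand: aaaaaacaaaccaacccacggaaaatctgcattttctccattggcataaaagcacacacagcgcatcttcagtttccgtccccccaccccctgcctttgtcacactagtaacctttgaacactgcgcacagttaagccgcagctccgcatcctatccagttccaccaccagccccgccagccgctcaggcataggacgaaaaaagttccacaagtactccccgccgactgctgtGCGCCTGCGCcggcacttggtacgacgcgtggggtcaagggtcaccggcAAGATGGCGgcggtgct
Cox6a1, chr5:115348909-115349208, minus strand: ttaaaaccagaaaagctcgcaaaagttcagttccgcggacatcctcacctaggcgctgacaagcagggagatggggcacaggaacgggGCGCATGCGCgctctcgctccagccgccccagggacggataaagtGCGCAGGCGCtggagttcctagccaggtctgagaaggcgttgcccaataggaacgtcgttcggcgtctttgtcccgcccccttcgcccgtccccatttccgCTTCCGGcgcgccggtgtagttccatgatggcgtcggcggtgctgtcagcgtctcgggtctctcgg
Cox7c, chr13:86046746-86047045, minus strand: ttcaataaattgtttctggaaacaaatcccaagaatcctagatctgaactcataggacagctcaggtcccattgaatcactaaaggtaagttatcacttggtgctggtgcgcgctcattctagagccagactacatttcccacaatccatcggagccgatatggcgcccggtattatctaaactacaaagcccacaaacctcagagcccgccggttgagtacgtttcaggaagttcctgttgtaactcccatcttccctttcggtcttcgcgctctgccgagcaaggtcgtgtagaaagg
Cycs, chr6:50566520-50566819, minus strand: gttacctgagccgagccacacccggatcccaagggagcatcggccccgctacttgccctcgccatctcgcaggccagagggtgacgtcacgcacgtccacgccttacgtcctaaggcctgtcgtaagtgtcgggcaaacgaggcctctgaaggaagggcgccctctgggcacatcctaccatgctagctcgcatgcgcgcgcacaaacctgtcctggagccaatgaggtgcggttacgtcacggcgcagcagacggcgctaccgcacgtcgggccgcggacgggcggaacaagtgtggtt

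Total counts per library were between 21113549 and 35332444, and the 42 genes held 0.394% to 0.613% of them. No gene of the set was at 0 in any library. Sucnr1 itself could not check the genotype labels, with 29 counts in the 8 wild-type and 4 in the 8 knockout libraries. Untreated wild type held 28 of these counts, with up to 17 in 1 library. Wild type with hydroquinone held 1, as did knockout with hydroquinone, and untreated knockout held 3. All 12 RPE markers, which include Rpe65, Rlbp1 and Best1, were present, with summed levels of 17130 to 28370 CPM over the libraries. Markers of other tissues were present as well. The 15 rod photoreceptor markers summed to 735 to 27080 CPM, the 12 skeletal muscle markers to 1520 to 6218 CPM and the 6 corneal epithelium markers to 3404 to 27910 CPM, with no marker at 0 in all libraries. A list of 8 oxidative stress response genes held some that were known to have changed in earlier results of these data. It is therefore no independent check of the treatment. For hydroquinone averaged over genotype 6 of the 8 had an edgeR adjusted p below 0.05, all higher, against 0.0845% of all genes. The median log2 fold change of the list was 0.66. In wild type alone 0 of the 8 passed (median 0.558, smallest edgeR adjusted p = 0.06), against 0.00650% of all genes. In knockout 4 did (median 0.777), against 0.0455% of all genes. Library identifiers either have a letter (lettered) or do not (unlettered), a possible sign of separate preparation, in equal numbers in each group except wild type with hydroquinone, which has 3 unlettered and 1 lettered. Nothing in the labels says whether libraries of 1 group were prepared apart, beyond the eyes of 3 mice, so the spread within a group may be partly technical.

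Levels of different genes were compared as mean CPM per kilobase of exon over the 16 libraries. Cox4i1, a subunit of complex IV that helps regulate its activity, had the highest level with 402.5 CPM per kilobase. Ndufa4, which has a complex I name but is now assigned to complex IV, followed with 210.7. In complex I the highest level was that of the accessory subunit Ndufa1 (173.6), and the lowest was that of Ndufb4 (9.34), also an accessory subunit. In complex III the hinge protein gene Uqcrh led with 147.5 and the core protein gene Uqcrc1 was lowest with 44.8. Cox5a, the lowest of complex IV, was at 36.0 and Cycs, the cytochrome c gene, at 15.9. The order depends on the length used. Per kilobase of the principal transcript, Cox4i1 (815.5) and Ndufa4 (477.1) stayed first and second, Cox6c moved from rank 30 to rank 4 with 258.7, and Cycs became the lowest with 17.3. Reads of some genes can be shared with pseudogenes: Cycs had 25.9% of its 50-base windows in common with other annotated genes, Uqcrb 25.4% and Cox7c 22.1%. At least 1 window was shared by 21 genes, and the gene sharing most with each was in the table for 19. It held at most 1.48% as many counts in 16 of these. The exceptions were Ndufa9 (20.2%, Ecsit), Ndufs1 (7.08%, Ap4e1) and Ndufs7 (2.04%, Cacna1e), which shared at most 0.906% of their windows.

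The genes were mostly high or low together in a library. A score, the mean log2(CPM + 1) of the 42 genes, was 6.94, 6.87, 6.81 and 6.66 in replicates 1 to 4 of untreated wild type. It was 6.665, 6.98, 6.33 and 6.74 in wild type with hydroquinone. It was 6.93, 6.46, 6.78 and 6.66 in untreated knockout, and 6.725, 6.62, 6.57 and 6.625 in knockout with hydroquinone. The highest and the lowest library of the series were thus both in wild type with hydroquinone, and the ranges of all 4 groups overlapped. Replicate 2 of that group had the highest value of the series for 18 of the 42 genes, and replicate 3 had the lowest for 29. In replicate 2 of untreated knockout all 42 genes were below their mean over the libraries, and in replicate 2 of untreated wild type all 42 were above it. The eyes of 1 mouse differed in the score by 0.068, 0.154 and 0.152 in the 3 mice with both eyes. With so much shared variation, the 42 genes are far from 42 independent measurements.

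**Figure D1:**
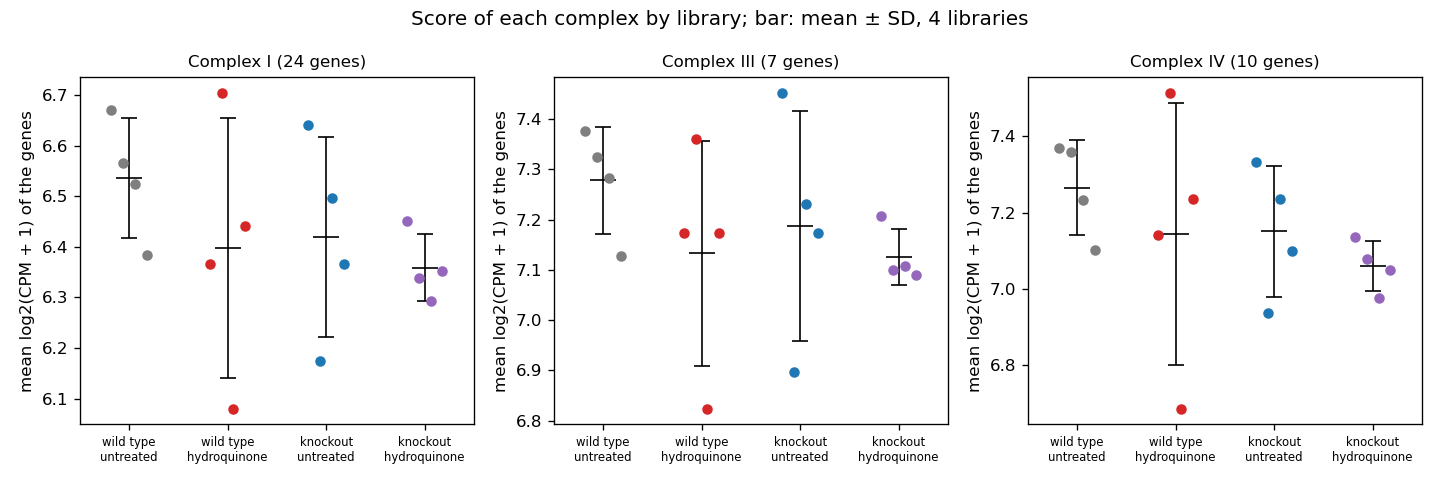
Mean log2(CPM + 1) of the genes of complex I, III and IV (y axis) for each library (point), by group (x axis); the bars give the mean and SD of 4 libraries. The axes do not start at 0, all groups overlap in each complex, and wild type with hydroquinone spreads most in complex IV, with an SD of 0.344.

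Each gene was correlated over the 16 libraries with the mean of the other 41, as a description in which all points share their library. Pearson's r had a median of 0.855 and was at least 0.7 for 36 of the 42 genes. Uqcrh and Cox4i1 stood highest, each with 0.96. Ndufs1, the largest core subunit of complex I and carrier of iron-sulphur clusters, was at the other end with -0.34, and Uqcrc2, a core protein of complex III, had 0.07. Uqcrb followed with 0.49, Cycs with 0.65, Cox7c with 0.67 and Cox6a1 with 0.68. Ndufs1 was at 143.3, 163.3, 209.6 and 139.6 CPM in untreated wild type and at 128.1, 122.2, 180.3 and 154.3 CPM in wild type with hydroquinone. In replicate 3 of the latter, where 29 genes of the set were at their lowest, it was the highest of its group. In untreated knockout it was at 148.2, 149.7, 164.8 and 158.3 CPM, and in knockout with hydroquinone at 161.4, 173.5, 172.0 and 154.9 CPM. Uqcrc2 kept to 174.6 to 239.1 CPM over the 16 libraries. The spread over libraries was widest for Uqcrq, a small subunit of complex III, which reached a 2.90-fold higher level in its highest than in its lowest library (69.6 to 201.9 CPM). It was narrowest for Ndufa10, an accessory subunit of complex I, with 1.31-fold (83.5 to 109.8 CPM).

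**Figure D2:**
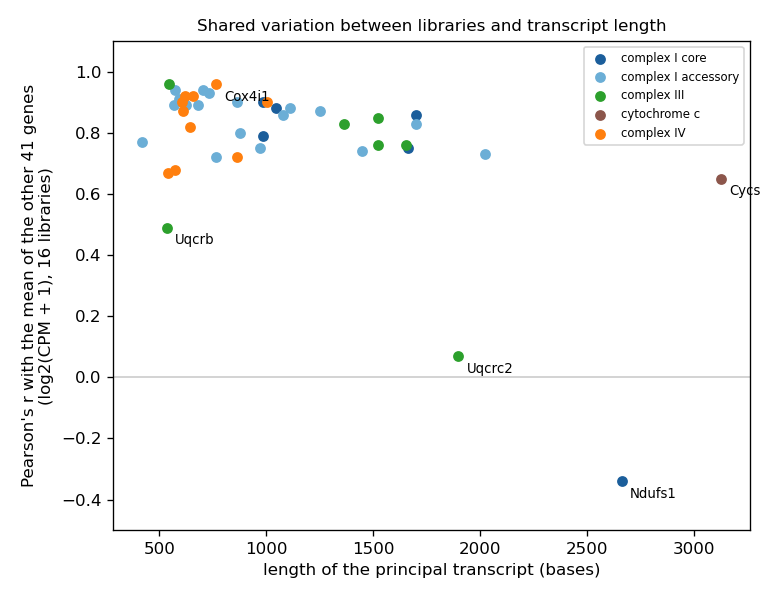
Pearson's r of each gene with the mean of the other 41 over 16 libraries (y axis) against the length of its principal transcript in bases (x axis), coloured by complex. Most genes lie above 0.7, while Ndufs1 at -0.34 and Uqcrc2 at 0.07 lie apart.

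Most of these genes have short transcripts: 25 of the 42 are under 1000 bases, 14 are from 1000 up to 2000 and 3 are longer. Ndufs1 has 2661 bases and Cycs 3123. The shared variation was therefore set beside that of other short transcripts, 531 genes under 1000 bases with a mean of at least 10 CPM and outside the set. Only the 42 genes were left out, so other subunit genes of the chain such as Ndufs5 and Cox8a are among them. With the eyes of a mouse averaged, the score of the 42 genes and the median deviation of these short transcripts had Pearson's r = 0.93 and Spearman's rho = 0.91 over 13 mice. Without the 2 mice farthest from the median of the short transcripts r was 0.86. Against 3836 genes of 4000 bases or more r was -0.93 (rho = -0.95, and -0.91 without 2 mice). The short transcripts had their highest and their lowest deviation, 0.390 and -0.405 on the log2 scale, in replicates 2 and 3 of wild type with hydroquinone. In the same libraries the median deviation of 75 ribosomal protein genes was 0.950 and -0.646. Those of them under 1000 bases are also among the 531 genes, so the sets are not separate. Whether transcript length or membership of such gene families goes with the score was not tested. Marker scores of other tissues had, with the score of the 42 genes, r = 0.44 for muscle, 0.46 for corneal epithelium and 0.27 for rods, and r = -0.29 for RPE markers. Within the set, rho of transcript length with each gene's r to the other 41 was -0.37. All of these relations are across libraries that differ in group, depth and dissection, 10 measures were compared with the score, and each comparison below was also fitted with the deviation of the short transcripts as a covariate.

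**Figure D3:**
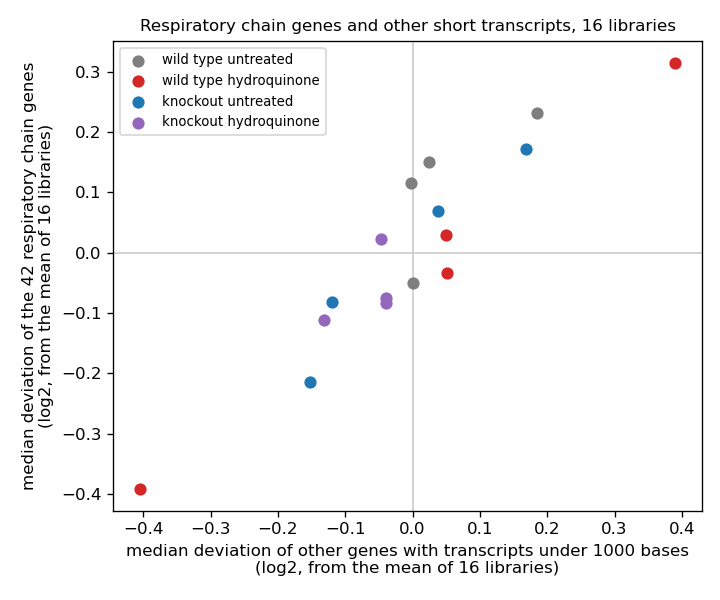
Median deviation of the 42 genes from their mean over 16 libraries (y axis, log2) against that of 531 other genes with transcripts under 1000 bases (x axis, log2), 1 point per library, coloured by group. The points rise together, with both ends (-0.39 and 0.31 on the y axis) in wild type with hydroquinone. Near 0 on the x axis they scatter. Replicate 2 of untreated wild type is at 0.024 on the x axis and 0.151 on the y axis. Replicate 1 of wild type with hydroquinone is at 0.051 and -0.034.

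Whether hydroquinone changes the expression of these genes was tested first in wild type. None of the 42 passed the threshold of an adjusted p below 0.05 (edgeR), against 1 of 15380 genes in all (0.00650%). In a bulk sample, fewer cells of a type and less RNA of a gene per cell cannot be told apart. Of the 42, 2 had an unadjusted p below 0.05, both lower with hydroquinone, against 4.28% of all genes in either direction and 2.85% lower. With DESeq2 0 passed and 1 had an unadjusted p below 0.05, as with limma and the mouse as a block. The log2 fold changes ran from -0.35 to 0.04 with a median of -0.126, and 39 of 42 were below 0, against a median of 0.00 and 7696 of 15380 tested genes below 0. This direction depended on 1 library: without replicate 3 of wild type with hydroquinone the median was 0.005 with 20 genes lower, and without replicate 2 it was -0.239 with 42 lower. It was -0.167 in the unlettered and -0.006 in the lettered libraries, and it was -0.069 with the muscle marker score and -0.120 with the short transcript deviation as a covariate. Without replicate 2 of wild type with hydroquinone 8 of the 42 had an unadjusted p below 0.05, all lower (4.5% of all genes in that fit), and with the short transcript covariate 5 did, all lower (6.07%). Marker genes of other tissues also had values below 0, none past the threshold, with a median of -0.485 for muscle (12 of 12 below 0) and -0.794 for rods (15 of 15), while corneal epithelium had 0.572 (5 of 6 above 0). Their part in the values of the 42 genes was not tested beyond the covariate fits.

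Cyc1, the cytochrome c1 gene of complex III, had 171.7, 171.9, 164.9 and 154.2 CPM in untreated wild type. With hydroquinone it had 138.6, 144.8, 102.4 and 134.1 CPM. All 4 treated libraries were below all 4 untreated ones, which held for no other gene of the set, against 2.91% of all genes in either direction and 1.78% lower. The log2 fold change was -0.35 (SE 0.146, unadjusted p = 0.03, edgeR adjusted p = 0.994). Cycs had 61.7, 67.4, 71.5 and 45.9 CPM untreated and 46.5, 47.6, 44.2 and 58.6 CPM with hydroquinone. Its groups overlapped, and the log2 fold change was -0.32 (SE 0.149, unadjusted p = 0.047, edgeR adjusted p = 0.994). In complex I the smallest p was that of Ndufa10, with 102.8 ± 5.62 CPM untreated and 91.0 ± 8.85 CPM with hydroquinone (SD, n = 4). Its log2 fold change was -0.18 (SE 0.1, edgeR adjusted p = 0.994). In complex IV it was that of Cox4i1, at 677.2 ± 60.7 and 600.8 ± 154.0 CPM (SD, n = 4), a log2 difference of -0.17 (SE 0.169, edgeR adjusted p = 0.994). Medians by group of genes were -0.163 for the 6 core subunits of complex I, -0.123 for its 18 accessory subunits, -0.129 for complex III and -0.113 for complex IV. The core subunits of complex I were all 6 below 0.

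**Figure D4:**
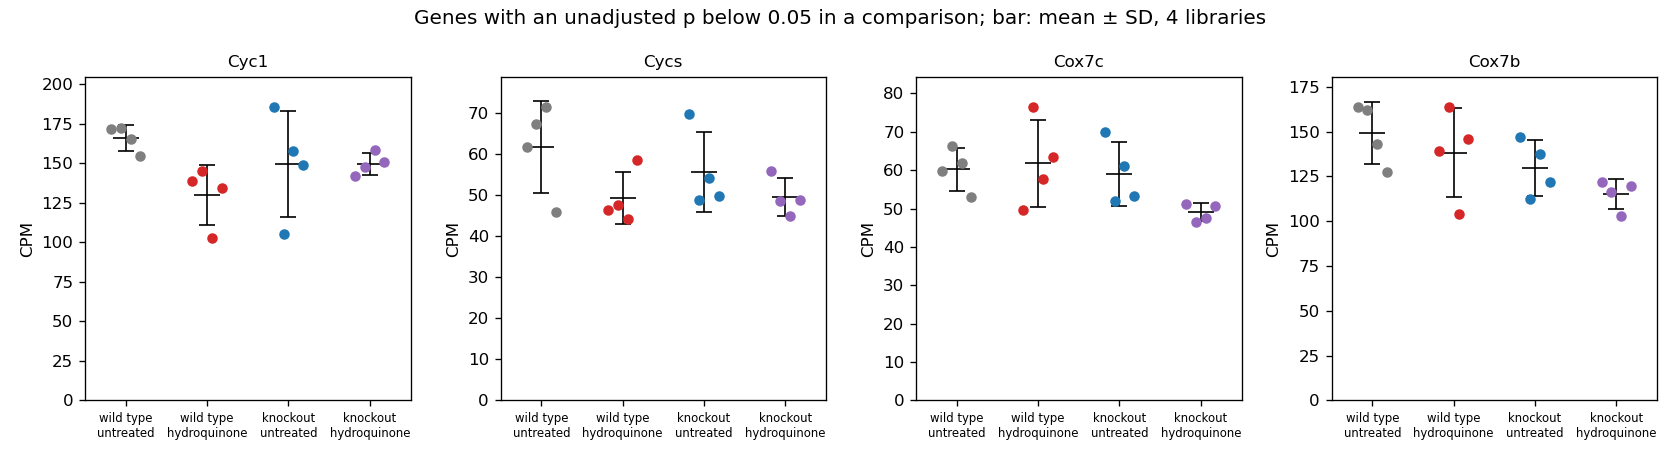
CPM of Cyc1, Cycs, Cox7c and Cox7b (y axis, from 0) in each library (point) of the 4 groups (x axis), with the mean and SD of 4 libraries; these genes had an unadjusted p below 0.05 in at least 1 comparison and none passed the adjusted threshold. Cyc1 with hydroquinone (102.4 to 144.8 CPM) lies below untreated (154.2 to 171.9 CPM) in wild type and inside the untreated range in knockout.

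In knockout mice, 0 of the 42 genes passed with hydroquinone in the edgeR test (7 of all genes, 0.0455%), and 0 had an unadjusted p below 0.05 (2.96% of all genes). With DESeq2 0 passed and 1 had an unadjusted p below 0.05, and with limma and the mouse block both counts were 0. Fold changes ran from -0.27 to 0.14 on the log2 scale with a median of -0.119, and 31 of 42 were below 0 (all genes: median -0.001, 50.4% below 0). The median was -0.016 without replicate 1 of untreated knockout, -0.060 with counts added over the eyes of 1 mouse and -0.059 with the short transcript deviation as a covariate. It was -0.082 in the unlettered and -0.135 in the lettered libraries. The groups of genes were not alike in sign: the 6 core subunits of complex I had a median of 0.038 with 5 above 0, while the 18 accessory subunits had -0.140, complex III -0.106 and complex IV -0.111. The muscle markers had a median of -0.234 (11 of 12 below 0) and the rod markers -0.313 (15 of 15), none past the threshold. Cox7c, a small complex IV subunit, had 69.9, 52.0, 61.0 and 53.3 CPM untreated and 51.3, 46.5, 47.5 and 50.8 CPM with hydroquinone. It was the only gene of the set whose treated and untreated knockout libraries did not overlap (1.91% of all genes in either direction, 0.728% lower). Its log2 fold change was -0.27 (SE 0.129, unadjusted p = 0.056, edgeR adjusted p = 1). Ndufs4, an accessory subunit of complex I needed for its stability, was at 96.7 ± 17.4 and 84.0 ± 6.85 CPM (SD, n = 4). This gave -0.20 on the log2 scale (SE 0.136, edgeR adjusted p = 1). Uqcrc2 was at 218.9 ± 14.5 and 203.4 ± 13.4 CPM (SD, n = 4), with -0.11 (SE 0.096, edgeR adjusted p = 1). Cyc1, at 149.2 ± 33.5 untreated and 149.6 ± 6.91 CPM with hydroquinone (SD, n = 4), had a log2 difference of 0.00 (SE 0.145, edgeR adjusted p = 1).

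Averaged over genotype, hydroquinone changed 13 of all genes (0.0845%) and 0 of the 42 past the edgeR threshold. Here 1 gene, Cycs, had an unadjusted p below 0.05 (5.72% of all genes), also with DESeq2 and with limma and the mouse block, in neither of which a gene passed. The Cycs estimate was below 0 in both genotypes, its average log2 fold change being -0.25 (SE 0.105, unadjusted p = 0.034, edgeR adjusted p = 0.864). This Cycs value was -0.169 with the muscle score as a covariate (edgeR unadjusted p = 0.086) and -0.049 in the lettered libraries. Without each library in turn its edgeR unadjusted p ran from 0.006 to 0.083. The median of the 42 was -0.113 with 40 below 0 (all genes: median 0.005, 48.8% below 0). It was -0.049 without replicate 3 and -0.175 without replicate 2 of wild type with hydroquinone, -0.069 without replicate 1 of untreated knockout -0.062 with the muscle score and -0.080 with the short transcript deviation as a covariate. It was -0.140 in the unlettered and -0.074 in the lettered libraries. The count of genes with an unadjusted p below 0.05 was 5 without replicate 2 of wild type with hydroquinone (5.68% of all genes in that fit) or without replicate 2 of untreated knockout (8.42%), and 4 without replicate 4 of untreated wild type (4.96%) or with the short transcript covariate (7.43%), all lower. The muscle markers had a median of -0.37 with 12 of 12 below 0, the rod markers -0.566 with 15 of 15 below 0 and the corneal epithelium markers 0.292 with 6 of 6 above 0, none past the threshold. Ndufa12, an accessory subunit that joins complex I late in its assembly, had the smallest p of that complex, with -0.16 (SE 0.075, edgeR adjusted p = 0.875). It was at 80.0 ± 7.66 CPM in untreated and 71.3 ± 7.99 CPM in treated wild type, and at 76.2 ± 9.09 and 68.7 ± 2.22 CPM in knockout (SD, n = 4 each). Uqcrc2 had -0.13 (SE 0.068, edgeR adjusted p = 0.901) and Cox7b, a small complex IV subunit, -0.14 (SE 0.095, edgeR adjusted p = 0.914). The 95% intervals bound how large a change these data allow, for 1 gene at a time and with each library taken as independent. Untreated wild type came from 2 mice and untreated knockout from 3, so the spread between mice may be understated. For all 42 genes these intervals excluded a 2-fold change, the lowest bound being -0.59 for Uqcrq and the highest 0.31 for Cox6a1. For 41 genes they lay within 0.5 of 0. In each of the other 6 comparisons the intervals of all 42 genes excluded a 2-fold change as well.

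**Figure D5:**
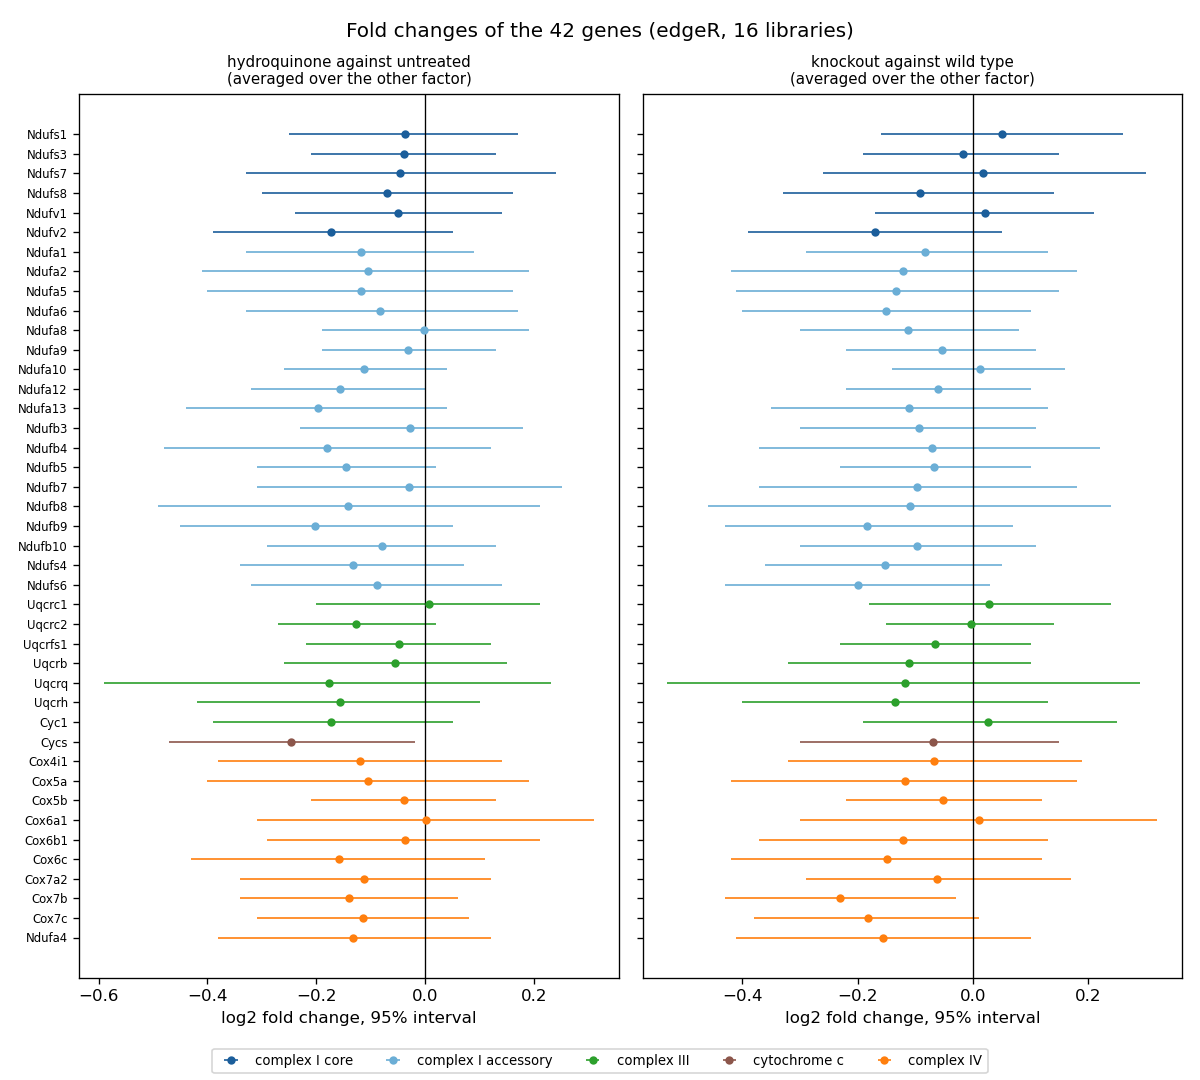
Log2 fold change (x axis) of each of the 42 genes (y axis, by complex) with its 95% interval from edgeR over 16 libraries, for hydroquinone against untreated (left) and knockout against wild type (right), each averaged over the other factor. Most points lie left of 0, nearly all intervals cross it, and none reaches -1 or 1.

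The effect of Sucnr1 loss was compared next. In untreated mice 0 of the 42 genes passed the edgeR threshold (0% of all genes) and 0 had an unadjusted p below 0.05 (1.32% of all genes), and both counts were also 0 with DESeq2 and with limma and the mouse block. All 42 fold changes were below 0, from -0.24 to -0.03 on the log2 scale with a median of -0.099, against a median of 0.011 and 46.8% of all genes below 0. The genotypes overlapped in each of the 42 genes (1.05% of all genes did not overlap). The median was -0.021 without replicate 2 of untreated knockout and -0.191 without replicate 1 of that group. It was -0.161 with counts added over the eyes of 1 mouse, -0.021 with the muscle marker score as a covariate and -0.042 with the deviation of short transcripts. It was -0.181 in the unlettered and -0.058 in the lettered libraries. The muscle score was 8.125 ± 0.532 in untreated wild type and 7.447 ± 0.85 in untreated knockout (SD, n = 4). All 12 muscle markers were below 0 (median -0.547) and all 15 rod markers above (0.449), none past the threshold. Ndufb9, an accessory subunit of complex I, had 191.8, 170.7, 153.9 and 146.8 CPM in wild type and 178.3, 113.7, 143.0 and 125.9 CPM in knockout. These overlap, and the log2 fold change was -0.24 (SE 0.166, edgeR adjusted p = 1). Cyc1 had -0.15 (SE 0.145), Cox7b -0.20 (SE 0.135) and Cycs -0.15 (SE 0.149), each with an edgeR adjusted p of 1.

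Under hydroquinone 0 of the 42 genes passed between the genotypes (edgeR, 0% of all genes). Of them 1, Cox7c, had an unadjusted p below 0.05, lower in knockout (4.18% of all genes, 1.53% lower), as with DESeq2 and with limma and the mouse block. Cox7c had 49.7, 76.6, 57.7 and 63.5 CPM in wild type and 51.3, 46.5, 47.5 and 50.8 CPM in knockout. Replicate 1 of wild type lay inside the knockout range, so the groups overlapped, as for all 42 genes (2.33% of all genes did not overlap, 0.605% lower in knockout). The log2 fold change was -0.34 (SE 0.129, unadjusted p = 0.02, edgeR adjusted p = 1). The 42 genes had a median of -0.087 with 30 below 0 (all genes: 0.015, 46.9% below 0). This median turned to 0.027 without replicate 2 of wild type with hydroquinone and to 0.027 with the short transcript deviation as a covariate, and it was -0.191 without replicate 3 of that group and -0.014 with the muscle score. It was -0.082 in the unlettered and -0.139 in the lettered libraries. Without replicate 3 of wild type with hydroquinone 8 genes had an unadjusted p below 0.05, 7 of them lower (11.6% of all genes in that fit), and with the short transcript covariate 6 did, 2 of them lower (4.73%). The 6 core subunits of complex I had a median of 0.082 with 5 above 0, against -0.099 for the 18 accessory subunits. Muscle markers had a median of -0.31 (10 of 12 below 0), corneal epithelium markers -0.824 (6 of 6) and rod markers 0.861 (15 of 15 above 0), none past the threshold. Ndufs6, an accessory subunit with a zinc site, had 83.8, 114.6, 60.2 and 83.3 CPM in wild type and 72.1, 77.7, 66.8 and 69.9 CPM in knockout. Its log2 fold change was -0.25 (SE 0.152, edgeR adjusted p = 1). Cyc1 had 0.20 (SE 0.146, edgeR adjusted p = 1) and Cycs 0.01 (SE 0.149, edgeR adjusted p = 1).

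Averaged over treatment, 0 of the 42 genes passed (edgeR, 0% of all genes) and 1, Cox7b, had an unadjusted p below 0.05, lower in knockout (2.96% of all genes, 1.55% lower), also with DESeq2 and with limma and the mouse block. Cox7b had 163.9, 161.8, 142.8 and 127.4 CPM in untreated and 139.4, 163.4, 104.1 and 145.9 CPM in treated wild type. In knockout it had 147.2, 112.4, 137.6 and 122.0 CPM untreated and 121.7, 116.3, 103.0 and 119.5 CPM with hydroquinone. The genotypes overlapped in both treatments, and the log2 fold change was -0.23 (SE 0.095, unadjusted p = 0.028, edgeR adjusted p = 0.987). Ndufs6 had -0.20 (SE 0.107, edgeR adjusted p = 0.987), Uqcrb, a subunit near the ubiquinone site of complex III, had -0.11 (SE 0.097, edgeR adjusted p = 0.987), and Cycs had -0.07 (SE 0.105, edgeR adjusted p = 0.987). The median was -0.096 with 35 below 0 (all genes: 0.020, 44.3% below 0), and -0.017 with the muscle score and -0.015 with the short transcript deviation as a covariate. Without 1 library it was -0.032 at the one end (without replicate 2 of wild type with hydroquinone), -0.043 without replicate 2 of untreated knockout, and -0.152 at the other end (without replicate 3 of wild type with hydroquinone). It was -0.119 in the unlettered and -0.091 in the lettered libraries. Genes with an unadjusted p below 0.05 numbered 7 without replicate 3 of wild type with hydroquinone (9.82% of all genes in that fit), 5 without replicate 1 of untreated knockout (3.73%) and 3 in the lettered libraries (6.18%), all lower. The muscle markers had a median of -0.399 (12 of 12 below 0) and the rod markers 0.673 (15 of 15 above 0), none past the threshold. As group means, 36 genes were highest in untreated wild type and 28 were lowest in knockout with hydroquinone. The same counts were not made over all tested genes. Because the 42 genes vary together between libraries, these counts are not separate results for each gene.

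The interaction asked whether hydroquinone acted differently in the genotypes. None of the 42 genes passed (edgeR, 0% of all genes) and 0 had an unadjusted p below 0.05 (1.92% of all genes, 0.585% in the lower direction), and both counts were 0 with DESeq2 and with limma and the mouse block. The median was 0.016 with 17 below 0 (all genes: 0.00, 7687 below 0), and it was 0.097 in the unlettered and -0.097 in the lettered libraries, 0.008 with the muscle score and 0.069 with the short transcript deviation as a covariate. With the latter 5 genes had an unadjusted p below 0.05, none in the lower direction (2.9% of all genes). The 6 core subunits of complex I had a median of 0.184 with 5 above 0, and none passed. Cyc1 had the largest value, 0.35 (SE 0.206, unadjusted p = 0.11, edgeR adjusted p = 1), so that its separation in wild type alone was not shown to differ from knockout. Cox7c had -0.31 (SE 0.183, edgeR adjusted p = 1), Ndufs1 0.26 (SE 0.196, edgeR adjusted p = 1) and Cycs 0.15 (SE 0.211, edgeR adjusted p = 1). The intervals here were wider, from -0.86 for Uqcrq to 0.89 for Cox6a1, with 11 of 42 within 0.5 of 0.

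The rest of the oxidative phosphorylation genes were read from the same fits, and none of the lists had a gene past the threshold in any of the 7 comparisons. For hydroquinone averaged over genotype, a further 17 subunit genes of complexes I, III and IV had a median log2 fold change of -0.084, all 17 below 0. The 4 genes of complex II had -0.083 (-0.167 in wild type, all 4 below 0, and 0.017 in knockout, 2 of 4 below 0), 16 genes of ATP synthase and its inhibitor -0.082 and 35 assembly factor genes -0.064 (26 below 0). The 11 regulator genes, among them Ppargc1a, Nrf1, Gabpa and Tfam, had 0.023. Unadjusted p-values below 0.05 in this comparison were those of Ndufb11 and Ndufc1 among the 17 subunits and Atp5k among the 16 ATP synthase genes. Each was lower with hydroquinone, and the other lists had none. Of all genes 5.72% had such a value in either direction and 2.96% lower. Over 13 mice the ATP synthase score followed that of the 42 genes with r = 0.99 (rho = 0.97, and 0.98 without 2 mice), and the complex II score with r = 0.69 (rho = 0.52, and 0.40 without 2 mice).

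Isoforms that replace common subunits in certain tissues were examined because muscle RNA was present. Cox6a2 and Cox7a1 are the heart and skeletal muscle forms of complex IV subunits. Cox6a2 ranged from 11.8 to 55.2 CPM and Cox7a1 from 14.4 to 73.2 CPM over the libraries. Over 13 mice Cox6a2 followed the muscle marker score with r = 0.91 (rho = 0.81, and 0.90 without 2 mice) and Cox7a1 with r = 0.84 (rho = 0.75, and 0.74 without 2 mice). Cox8b, also a muscle form, ranged from 60.4 to 141.2 CPM with r = 0.55. Cox6b2, known as a testis form, ranged from 13.01 to 35.9 CPM with r = -0.39. It had 28.01 ± 4.38 CPM in untreated and 18.2 ± 3.9 CPM in treated wild type, and 29.3 ± 6.74 and 23.3 ± 5.73 CPM in knockout (SD, n = 4 each). Its log2 fold change averaged over genotype was -0.48 (SE 0.155, unadjusted p = 0.0079, edgeR adjusted p = 0.775). Cox4i2, known as a lung and hypoxia form, was at 1.75 to 8.63 CPM and Ndufa4l2 at 1.05 to 3.67 CPM. Cox8c was at 0 in all libraries.

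The subunits encoded in mitochondrial DNA work in the same complexes. Averaged over genotype, the 7 of 13 such genes that could be tested had a median of 0.073 with hydroquinone, 6 above and 1 below 0, and none passed. The score of these 7 had r = -0.59 with that of the 42 nuclear genes over 13 mice (rho = -0.58, and -0.66 without 2 mice). Per kilobase, mt-Co1 was at 5395 CPM and mt-Cytb at 4686 CPM, above every nuclear subunit. The other 6 genes had almost no counts in the table: over all 16 libraries mt-Co3 had 221, mt-Co2 105, mt-Atp6 43, mt-Nd3 13, mt-Nd4l 10 and mt-Atp8 2. The first 5 of these share at least 98.0% of their 50-base windows with annotated copies on chromosome 1, whereas mt-Atp8 shares 0.0%. Of the genes with high counts, mt-Cytb and mt-Nd1 share 0.0%, mt-Co1 51.1% and mt-Nd4, with 723384 counts, 62.2%. Whether the counting step left out reads that fit more than 1 place was not tested, and the levels of these 6 genes were not interpreted.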

How the data were processed

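RNA of the RPE of 16 eyes was sequenced. The authors deposited counts, whole numbers for each Ensembl gene, although the table's name speaks of FPKM. The submitters' processing notes name STAR, Cufflinks, DESeq2 and mm10, without versions or roles, and strand and multi-mapping settings are not given in the sources used here. Symbols and positions came from GENCODE vM21 (GRCm38), which matched 51719 of 51912 identifiers. Genes averaging 1 CPM or more were tested (15380 genes, 99.8% of counts) with edgeR 4.0.16 in R 4.3.3 (quasi-likelihood F test, TMM scaling, 4 group means in 1 model), with Benjamini-Hochberg adjustment over all tested genes and a threshold of 0.05. CPM use TMM-scaled library sizes, a score is a mean of log2(CPM + 1), SE was derived from the F statistic and intervals are 95%. Libraries held 21113549 to 35332444 counts, and intervals cover the spread between libraries.

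The eyes of a mouse entered as separate libraries. The titles name 13 mice while the protocol states 4 animals per group, and the titles were followed. Replicate numbers are names in accession order and do not pair libraries. Alternatives used limma 3.58.1 on log2(CPM + 1) with the mouse as a random block, DESeq2 1.42.0, other scaling, filters, covariates and subsets of libraries. On simulated counts (15380 genes, 200 changed, wild-type hydroquinone comparison), the test found 45% of 2-fold and 82% of 4-fold changes. Of its 132 calls 5 were false. The changed genes were drawn from all tested genes, down to a mean of 1 CPM. The shares found may therefore not hold for the 42 genes, whose mean levels ran from 17.9 CPM (Ndufb4) to 623.8 CPM (Cox4i1).

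Genes named with values had the smallest unadjusted p of each complex in each comparison or the highest or lowest level of a complex, or were Cycs or a detected tissue isoform. Ndufs1, Uqcrc2, Uqcrq, Ndufa10, Cox6c, Cox6a1, Ndufa4, Ndufb11, Ndufc1 and Atp5k were otherwise named after their values were seen. The genes, lists and motifs were chosen with earlier results of these data known. Correlations are given as descriptions without p-values, since a score of genes so chosen is not tested.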

Additional observations from a re-analysis of the deposited data

Results flagged for a closer look

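Dixon's ratio was computed for 17 measures in each group, 68 sets in all, to find libraries far from the other 3 (a ratio above 0.829). Chance gives this in about 1 set in 20, and there were 2. The complex III score of replicate 1 of knockout with hydroquinone was 7.208, while the other 3 libraries had 7.090 to 7.107 (a ratio of 0.856). The same library had a rod marker score of 9.794 against 3.176 to 3.912, and a muscle marker score of 8.46, and the part of other tissues in its complex III score was not tested. Uqcrb in replicate 1 of untreated knockout was at 6.612 log2(CPM + 1), while the other 3 had 6.468 to 6.493 (a ratio of 0.830).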

How the results depend on the processing

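No gene of the 42 passed the threshold in any of 168 further fits over the 7 comparisons. For the gene with the smallest p of each complex in each comparison and for Cycs, 658 of 672 further values kept their direction. In the lettered libraries, where wild type with hydroquinone has 1 library, assumed to vary like the rest, the interaction was -0.009 for Ndufs1 (0.257 as reported) and -0.201 for Cycs (0.154), and Cycs with hydroquinone in wild type was 0.051 (-0.324). The Cycs value for knockout against wild type under hydroquinone, 0.007, has no stable direction: it was -0.007 with median-of-ratios scaling and with DESeq2, -0.031 with a mean of at least 10 CPM, -0.016 with the rod score as a covariate, -0.027 with only the groups compared, -0.327 in the lettered libraries and from -0.057 to 0.102 without each library in turn. Averaged over treatment, Cycs was 0.056 with the muscle score as a covariate (-0.070). The cause was not tested. Medians over the 42 genes ranged, without each library in turn, from -0.239 to 0.005 for hydroquinone in wild type, from -0.169 to -0.016 in knockout and from -0.191 to 0.027 for knockout against wild type under hydroquinone. The interaction median ranged from -0.073 to 0.133 and has no stable direction. Each further fit in which 3 or more of the genes had an unadjusted p below 0.05 is given beside its comparison. The covariates of muscle score and short transcripts, the subsets by identifier form and the principal transcript length were chosen after seeing the data. With a pseudocount of 0.1 all 16 score values moved by less than 1 SD. No paired analysis was possible because the replicate numbers are names in accession order that link no libraries. The mouse as a block in limma changed no call. The correlation within a mouse estimated for that fit was -0.0202, and only 3 mice gave both eyes. The block therefore altered the fit little and is a weak check on the shared mice.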
